A study of Mus musculus with 4 samples.

Results

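The complement genes described here are 8 of the 24411 genes listed in each of 4 RNA-seq libraries from 4T1 cells, a mouse mammary tumour line long established in culture. They were taken by gene symbol: C3, Cfb, C1ra, C4b, Cd55, Cd59a, Serping1 and Cr1l. Of the 8, C4b, Cd55 and Cd59a were listed at 0 in all 4 libraries, and 3 (C3, C1ra and Cr1l) passed the filter used for testing, 2 or more libraries at a TPM of 1 or higher. TPM is a transcript's abundance after division by its length, scaled to the same total in every library, so levels can be set side by side between genes.

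The series compares 2 control libraries of 4T1 with 2 libraries labelled CD95ko, from cells in which CD95, the death receptor encoded by Fas, was targeted at exon 9. Per the labels' protocols, the RNA sources were an untransduced control, a 4T1 line carrying a lentiviral Cas9 with a blasticidin selection marker, and a pair of knockout lines, each expanded from a single sorted cell of that Cas9 line. The labels give both control libraries the genotype control without saying which is the Cas9 line, and the knockout lines carry Cas9 as well. Each knockout library therefore stands for 1 clone, and nothing in the labels describes separate cultures within a line, so p-values measure only the spread between these 4 libraries. Cells were grown in medium with serum, and no cytokine treatment is described.

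Complement is a cascade of plasma and surface proteins. Antibody-bound C1, microbial sugars bound by lectins, or spontaneous turnover of C3 lead to enzymes that cleave C3, whose fragment C3b tags surfaces for uptake and starts the terminal pore. Host cells carry membrane proteins that take these enzymes apart or block the pore. The liver makes most of the circulating proteins, but epithelial and tumour cells also transcribe C3, factor B and the C1 proteases, and interferon, interleukins and NF-κB signalling are known inducers of several of them.

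Sequencing depth cannot be read from TPM, so an exact 0 means only that a gene is listed at 0. All 20 proteasome genes checked were above 0 in every library. Fas stood at 49.4 and 39.2 TPM in the controls, at 15.8 TPM in the library labelled CD95ko1 and at 49.5 TPM in the library labelled CD95ko2. A gene-level value cannot show exon 9 on its own, and directions below refer to the libraries as labelled. Of 8 mammary epithelial markers, 7 were above 0 in every library and Krt5 was at 0 in all of them. All 5 hepatocyte markers (Alb, Apoa1, Ttr, Serpina1a and Fga) were at 0 throughout, as were 4 of 5 endothelial and 5 of 8 fibroblast markers. Of 10 macrophage markers, 7 (Ptprc, Adgre1, Lyz2, Tyrobp, Fcer1g, Aif1 and Mrc1) were at 0 in all 4 libraries.

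None of the members passed the comparison of the libraries labelled CD95ko with the controls. C3, Cfb and Cr1l each differed as much between the pair of libraries labelled CD95ko as between either of these and a control, or more. The library labelled CD95ko2 held about 4 times the C3 transcript of each other library, was the only one with Cfb above 1 TPM, and had the lowest Cr1l. In limma, 0 of the 3 tested members had an adjusted p under 0.05 and 0 had an unadjusted p under 0.05, where 0.0537% and 14.9% of the 11167 tested genes did. The median log2 fold change of these 3, which are not all of the members, was 0.95 against 0.13 over all tested genes. In bulk libraries, fewer cells that express a gene and less of its RNA per cell cannot be told apart.

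**Figure D1:**
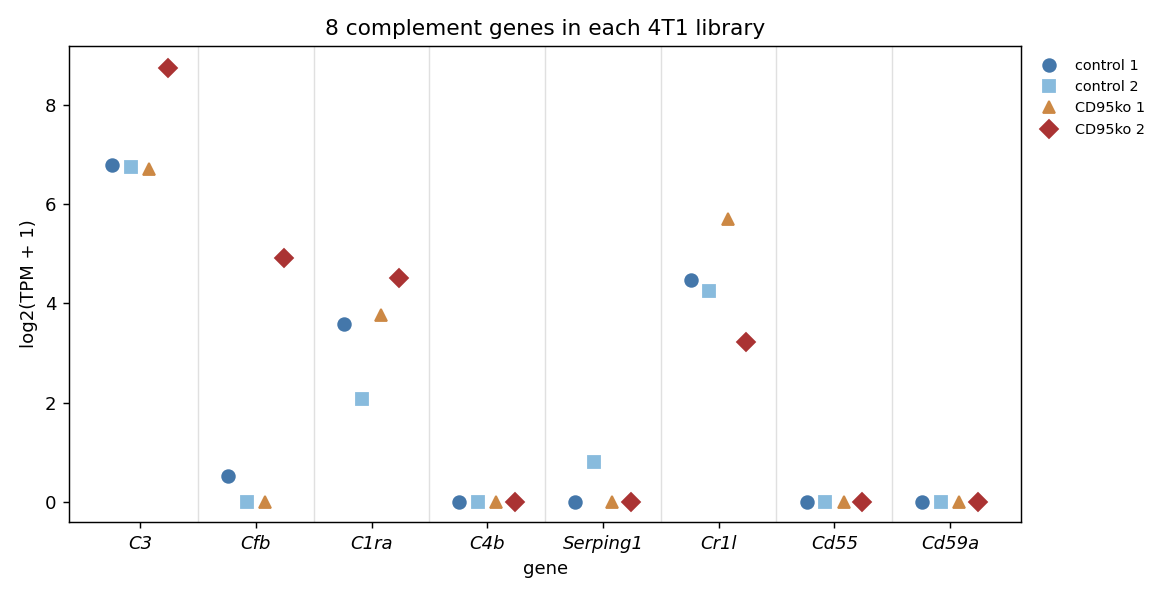
Level of the 8 members in each library. The vertical axis is log2(TPM + 1), each point is 1 library, and genes are ordered from the central component through the initiating proteases to the regulators. C3 and Cfb are highest in the library labelled CD95ko2, Cr1l is lowest there, and C4b, Cd55 and Cd59a lie at 0 in all 4 libraries.

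C3, the component on which all 3 initiation routes converge, was the most abundant member in every library. It lies on the reverse strand at chr17:57203970-57228136 (GRCm38, GENCODE M21), and its longest annotated transcript has 41 exons and 5136 nucleotides. C3 was listed at 109.6 TPM in control 1, 107 TPM in control 2, 103 TPM in the library labelled CD95ko1 and 428 TPM in the library labelled CD95ko2. The other 3 libraries thus lay close together and the one labelled CD95ko2 stood apart, and the groups overlapped because the other library labelled CD95ko lay just under both controls. By rank among all listed genes, C3 was number 1501 and 1329 in the controls, 1506 in the library labelled CD95ko1 and 333 in the one labelled CD95ko2.

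C3 averaged 108 ± 1.87 TPM over the controls and 266 ± 229 TPM over the libraries labelled CD95ko (SD, n = 2 each). The log2 fold change was 0.95 ± 0.57 SE, with a limma adjusted p of 0.464. That difference was smaller than the spread between the libraries labelled CD95ko. It rested on single libraries: without the library labelled CD95ko2 it was -0.07 ± 0.37 SE (limma adjusted p = 0.964), and without the library labelled CD95ko1 it was 1.97 ± 0.34 SE (limma adjusted p = 0.00171). The latter fit compares 1 library with the controls, assumes that it varies as they do, and calls 1034 of all tested genes. The ratio of C3 between the libraries labelled CD95ko was 4.13, and 9.9% of tested genes were more than 2-fold higher in the one labelled CD95ko2 than in the other. A gap of more than 2-fold above each of the other 3 libraries, on the log2(TPM + 1) scale, was found in the library labelled CD95ko2 for 4.57% of tested genes and for 1 of the 3 tested members, C3.

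Cfb encodes factor B, the protease that joins C3b to form the C3 convertase of the alternative pathway and so amplifies C3 cleavage. It lies on the reverse strand at chr17:34856374-34862518 (GRCm38), in 18 exons. Cfb was listed at 0.44 TPM in control 1, at 0 in control 2 and in the library labelled CD95ko1, and at 29.1 TPM in the library labelled CD95ko2. It was thus near or at 0 in 3 libraries, and present in the same library in which C3 was high, where it ranked next after C3 among the members. With a TPM of at least 1 in a single library it did not enter the test. The shares given for tested genes therefore do not cover its pattern. Tested without the filter, its log2 fold change was 2.19 ± 1.42 SE (limma adjusted p = 0.562).

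C2, the classical pathway's counterpart of factor B, is the upstream neighbour of Cfb on the same strand, at chr17:34862604-34898265, and the annotated genes are 85 nucleotides apart. It is named here after its values were seen. C2 was listed at 0 in both controls and in the library labelled CD95ko1, and at 7.57 TPM in the library labelled CD95ko2, the same library as for Cfb. None of the 25-nucleotide stretches of the longest C2 transcript occurs in a Cfb transcript, nor the reverse (0% each way), so the pair share no annotated stretch of that length. C4b, which lies on the same strand 112491 nucleotides downstream of Cfb, was at 0 in every library.

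Among the inputs to the cascade, C1ra encodes the C1r protease, which with C1s forms the catalytic part of C1. It lies on the forward strand at chr6:124512405-124523443 (GRCm38), in 11 exons. C1ra was listed at 11.1 TPM in control 1, 3.25 TPM in control 2, 12.7 TPM in the library labelled CD95ko1 and 21.7 TPM in the library labelled CD95ko2. Both libraries labelled CD95ko lay above both controls, although the one labelled CD95ko1 exceeded control 1 by a factor of only 1.14.

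C1ra averaged 7.18 ± 5.55 TPM over the controls and 17.2 ± 6.37 TPM over the libraries labelled CD95ko (SD, n = 2 each). The log2 fold change was 1.3 ± 0.63 SE, with a limma adjusted p of 0.380. Groups did not overlap, with the libraries labelled CD95ko higher, for 29.2% of all tested genes and for 1 of the 3 tested members, C1ra; they were lower for 18.3% of tested genes and for 0 members. The size of the difference depended on the control used, at 0.54 without control 2 and 2.05 without control 1. Control 2 held 29.3% of the C1ra level of control 1, and 12.6% of tested genes were more than 2-fold lower there than in control 1. A value more than 2-fold below each of the other 3 libraries was found in control 2 for 5% of tested genes, C1ra among them.

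C1ra has a near-identical neighbour, C1rb. In GENCODE M21, 60.2% of the 25-nucleotide stretches of the longest C1ra transcript also occur in C1rb, so the split of reads between them is uncertain. C1rb was listed at 0.84 and 0.73 TPM in the controls and at 0 in both libraries labelled CD95ko. The pair summed to 11.9 and 3.98 TPM over the controls, and to 12.7 and 21.7 TPM over the libraries labelled CD95ko, in the same order of libraries as C1ra alone.

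C1s1, which encodes the partner protease C1s and lies 6901 nucleotides from C1ra on the opposite strand, had another order. It was listed at 10.3 TPM in control 1, 3.62 TPM in control 2, 3.82 TPM in the library labelled CD95ko1 and 0 in the library labelled CD95ko2. Thus C1s1 was at 0 in the library with the highest C1ra (log2 fold change -1.72 ± 0.87 SE, limma adjusted p = 0.390). Its paralogue C1s2 holds 42.9% of the 25-nucleotide stretches of the longest C1s1 transcript, and the pair summed to 10.8 and 5.11 TPM over the controls, 3.82 TPM in the library labelled CD95ko1 and 0 in the one labelled CD95ko2. C1rl, which encodes a C1r-like protease and lies 1761 nucleotides upstream of C1ra on the same strand, was listed at 0.8 and 0 TPM in the controls, 1.58 TPM in the library labelled CD95ko1 and 5.5 TPM in the one labelled CD95ko2. Like C1ra, it was among the 29.2% of tested genes higher in both libraries labelled CD95ko than in either control. Its log2 fold change was 1.61 ± 0.76 SE (limma adjusted p = 0.363).

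C4b, the substrate that C1s cleaves to build the classical convertase, was at 0 in all 4 libraries. Its near-identical neighbour C4a, with which 54.5% of the 25-nucleotide stretches of C4b are shared, was listed at 0.87 TPM in the library labelled CD95ko1 and at 0 elsewhere. Serping1, the C1 inhibitor, which inactivates C1r and C1s, was listed at 0.75 TPM in control 2 and at 0 in the other 3 libraries. Serping1 lies at chr2:84765387-84775444 and C4b at chr17:34728380-34743882, both on the reverse strand. Thus C1ra RNA was above 0 and Serping1 RNA was listed at 0 in 3 of the 4 libraries. The 0.75 TPM of the remaining library lies below the filter's level of 1, and protein was not measured.

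Of the membrane regulators among the members, only Cr1l was above 0. Cr1l encodes Crry, a rodent membrane protein that dissociates C3 convertases and acts as cofactor for the cleavage of C3b and C4b. It lies on the reverse strand at chr1:195097382-195131586 (GRCm38), with up to 10 exons. Cr1l was listed at 21.1 TPM in control 1, 18.2 TPM in control 2, 50.8 TPM in the library labelled CD95ko1 and 8.32 TPM in the library labelled CD95ko2. The controls lay between the libraries labelled CD95ko, which were the highest and the lowest of the 4 and differed by a factor of 6.10.

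Cr1l averaged 19.6 ± 2.06 TPM over the controls and 29.5 ± 30.01 TPM over the libraries labelled CD95ko (SD, n = 2 each). The log2 fold change was 0.10 ± 0.73 SE (limma adjusted p = 0.968). It changed sign with the scaling, to -0.056 under quantile normalization and -0.10 with equal medians. It was -1.14 without the library labelled CD95ko1 and 1.33 without the library labelled CD95ko2. Cr1l was among the 13.4% of tested genes more than 2-fold lower in the library labelled CD95ko2 than in the one labelled CD95ko1. A value more than 2-fold above each of the other 3 libraries was found in the library labelled CD95ko1 for 1.47% of tested genes, Cr1l among them. A value more than 2-fold below each of the others was found in the library labelled CD95ko2 for 6.2%, again with Cr1l among them.

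Cd55, decay-accelerating factor, dissociates C3 convertases from the membrane, and Cd59a, a lipid-anchored protein, blocks assembly of the terminal pore. Both were at 0 in all 4 libraries. Cd55 lies at chr1:130439027-130462744 on the reverse strand and Cd59a at chr2:104095801-104115354 on the forward strand. Their paralogues Cd55b and Cd59b, with which 15.8% and 10.4% of the 25-nucleotide stretches of the longest Cd55 and Cd59a transcripts are shared, were also at 0 in all 4 libraries, so the paralogue held no level in place of the member. Cd46, the remaining classical membrane cofactor, was listed at 2.83 TPM in the library labelled CD95ko1 and at 0 elsewhere.

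The order of the members by TPM was C3, Cr1l and C1ra in the controls and in the library labelled CD95ko1, and C3, Cfb, C1ra and Cr1l in the library labelled CD95ko2. C3, at 103 to 428 TPM, exceeded the next member in every library, while the ranges of Cr1l (8.32 to 50.8 TPM) and C1ra (3.25 to 21.7 TPM) overlapped. In the library labelled CD95ko1, C3 stood at 103 TPM and Cr1l at 50.8 TPM, whereas in the library labelled CD95ko2 they stood at 428 and 8.32 TPM.

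**Figure D2:**
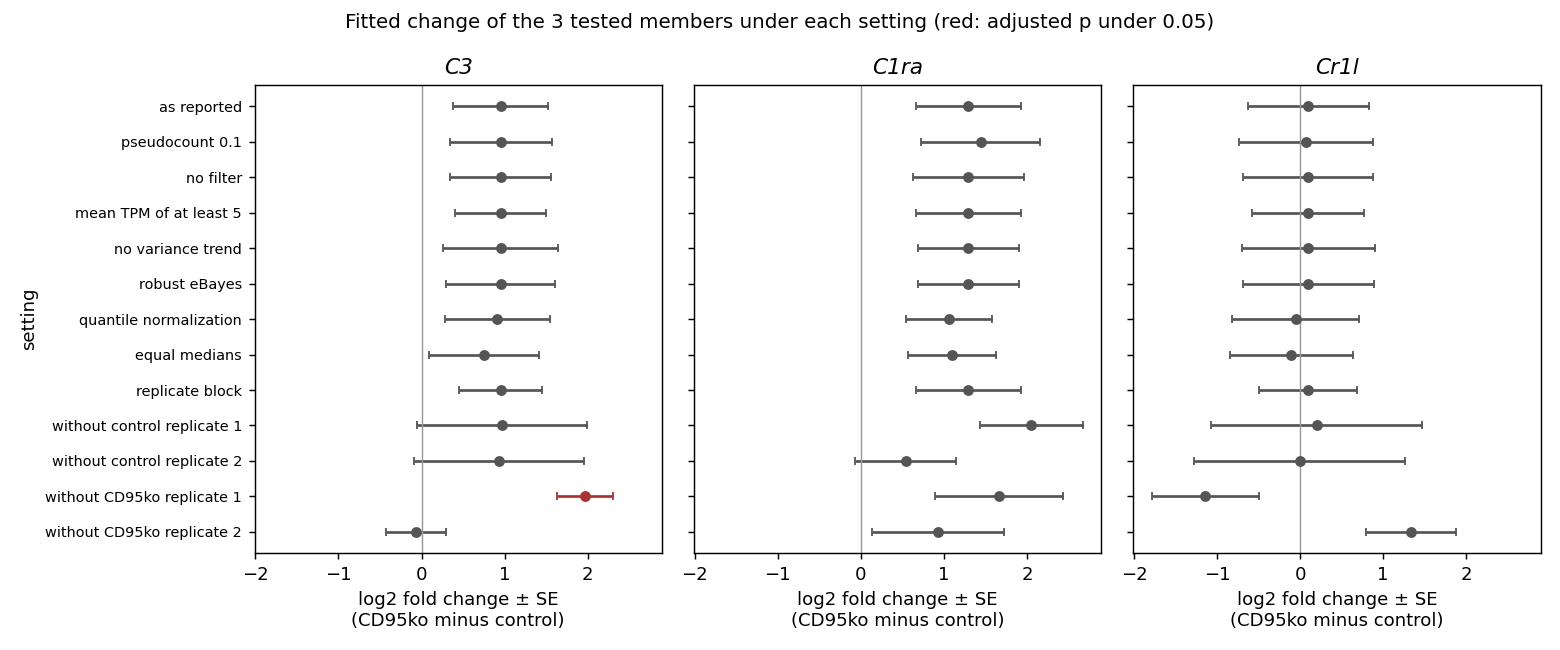
Fitted log2 fold change of C3, C1ra and Cr1l, libraries labelled CD95ko minus controls, under each analysis setting. Points are limma estimates, bars are ± 1 SE, the vertical line marks 0, and red marks an adjusted p under 0.05. The single red point is C3 without the library labelled CD95ko1, and the estimates for C3 and Cr1l without 1 or the other library labelled CD95ko lie on opposite sides of 0.

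The sequences upstream of C3 and Cr1l are shown because these members stood apart in opposite directions in the library labelled CD95ko2. They are the 250 bases before the RefSeq start (GRCm38.p6), 5′ to 3′ on the gene's strand, from chr17:57228137-57228386 for C3 and chr1:195131571-195131820 for Cr1l. Capitals mark a match to any of 4 motifs searched on both strands: the C/EBP motif TTGCNNAA, GAAANNGAA from the interferon-stimulated response element, the STAT motif TTCNNNGAA and the NF-κB consensus.
C3: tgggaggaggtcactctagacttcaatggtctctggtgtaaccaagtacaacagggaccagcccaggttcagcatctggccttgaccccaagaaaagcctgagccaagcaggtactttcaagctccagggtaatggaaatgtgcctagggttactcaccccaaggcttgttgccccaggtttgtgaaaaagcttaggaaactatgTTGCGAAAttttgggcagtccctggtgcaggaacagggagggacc
Cr1l: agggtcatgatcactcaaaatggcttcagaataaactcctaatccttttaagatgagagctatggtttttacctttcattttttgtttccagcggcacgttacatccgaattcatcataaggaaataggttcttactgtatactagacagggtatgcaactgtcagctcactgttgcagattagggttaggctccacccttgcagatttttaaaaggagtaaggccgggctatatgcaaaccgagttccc
The C3 sequence holds 1 match, to the C/EBP motif, from 45 to 38 bases before the start, overlapping no other match. Of 32851 promoter sequences of this length, 9.56% hold that motif, 7.13% the interferon-stimulated element, 7.02% the STAT motif and 7.25% the NF-κB consensus. The Cr1l sequence holds none of these letters in this window. Promoter sequences were matched for 5 of the 8 members. That of C1ra held no match, and that of Cd59a held 1, to the interferon-stimulated element. Of other complement genes, C1rl and C1s1 had a C/EBP match, from 243 to 236 and from 242 to 235 bases before a start. In the library labelled CD95ko2 these genes were listed at 5.5 and 0 TPM.

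The rest of the pathway was read from a list of 49 other complement genes, of which 31 were at 0 in all 4 libraries and 9 entered the test. Clu alone passed, and it was higher in the libraries labelled CD95ko; the 9 had a median log2 fold change of -0.34, with 4 above and 5 below 0. The share of all tested genes called higher was 0.0179%. Clu encodes clusterin, a secreted chaperone that binds the forming terminal complex. It was listed at 97.4 and 67.0 TPM in the controls and at 819 and 831 TPM in the libraries labelled CD95ko, so the groups were far apart (log2 fold change 3.34 ± 0.31 SE, limma adjusted p = 0.024). Its adjusted p lay between 0.0514 and 0.119 under 6 of the 8 other settings that used all libraries.

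The terminal pathway was nearly empty. Of its 7 genes, Hc (which encodes C5), C6, C7, C8a, C8b and C9 were at 0 in all 4 libraries, and C8g was listed at 1.4 TPM in control 2 alone. The fluid-phase regulators Cfi, C4bp and Vtn were likewise at 0 throughout. So were the C1q chains C1qa, C1qb and C1qc, and Cfd, the protease that activates factor B. Cfp, which encodes properdin, the stabiliser of the alternative convertase, had 1.66 TPM in control 1, 2.19 TPM in the library labelled CD95ko1 and 0 in the other libraries. Its log2 fold change was 0.13 ± 0.87 SE (limma adjusted p = 0.962), and -0.069 with equal medians.

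In the lectin route, Masp2, the protease that cleaves C4 and C2, was listed at 2.16 and 2.1 TPM in the controls, 1.11 TPM in the library labelled CD95ko1 and 0 in the one labelled CD95ko2 (log2 fold change -1.11 ± 0.72 SE, limma adjusted p = 0.5). Fcna, which encodes ficolin A, a sugar-binding recognition protein, was at 4.87 and 2.14 TPM in the controls, at 0 in the library labelled CD95ko1 and at 2.7 TPM in the one labelled CD95ko2. Susd4, a membrane protein that inhibits complement, was at 3.02 and 0.66 TPM in the controls, 3.19 TPM in the library labelled CD95ko1 and 0 in the one labelled CD95ko2. Neither Fcna (limma adjusted p = 0.535) nor Susd4 (limma adjusted p = 0.891) passed the test.

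Among receptors, C3ar1, Cr2, Itgam, Itgax, Vsig4 and Cd93 were at 0 in all libraries. Itgb2, the shared β chain of the integrin receptors for cleaved C3b, was listed at 18.03 and 6.44 TPM in the controls, 12.2 TPM in the library labelled CD95ko1 and 68.5 TPM in the one labelled CD95ko2. It was thus highest in the same library as C3 and Cfb (log2 fold change 1.35 ± 0.79 SE, limma adjusted p = 0.455). Its partner chains in those C3b receptors, Itgam and Itgax, were at 0 there, and other partner chains were not examined. C1qbp, a mainly mitochondrial protein that binds the heads of C1q, was at 485 and 423 TPM in the controls, 506 TPM in the library labelled CD95ko1 and 192 TPM in the one labelled CD95ko2 (log2 fold change -0.54 ± 0.43 SE, limma adjusted p = 0.589). Without the library labelled CD95ko1, the log2 fold change was -1.23 for C1qbp and 2.55 for Itgb2. For C1s1 it was -2.85, for C1rl 2.28 and for Clu 3.35. Without the library labelled CD95ko2, it was 0.16 for C1qbp and 0.15 for Itgb2. For C1s1 it was then -0.58, for C1rl 0.94 and for Clu 3.33. As for C3, each of these fits compares 1 library with the controls.

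**Figure D3:**
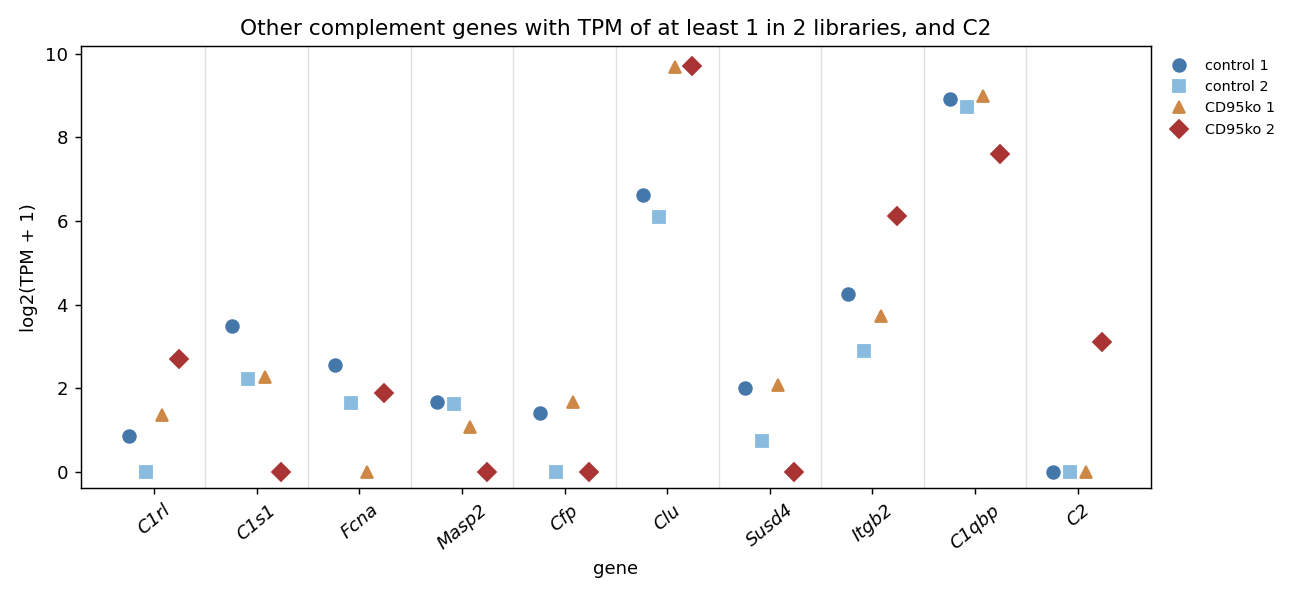
Level of the 9 other complement genes that entered the test, and of C2, in each library, on the log2(TPM + 1) scale. Each point is 1 library. For Clu both libraries labelled CD95ko lie above both controls by a wide gap, while C1rl, Itgb2 and C2 are highest, and C1s1, Masp2, Susd4 and C1qbp lowest, in the library labelled CD95ko2, with Cfp at 0 there and in control 2.

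Interferon response genes stood apart in control 1, where 23 of the 25 listed genes were highest. Each of the 25 listed genes had a lower level in control 2 than control 1, and the median difference was -2.28 in log2(TPM + 1) against -0.35 over all tested genes. Their summed level was 3735 TPM in control 1, 1298 TPM in control 2, 1267 TPM in the library labelled CD95ko1 and 1863 TPM in the one labelled CD95ko2. C1ra differed between the controls in the same direction, by -1.51, whereas C3 differed by -0.03 and Cr1l by -0.20. Against control 1, 25 and 23 of the 25 interferon genes were lower in the libraries labelled CD95ko1 and CD95ko2. Their medians were -1.68 and -1.65, while C1ra was 0.18 and 0.91 above control 1. Against control 2, 18 of the 25 were higher in each of these libraries, and 7 were lower. The medians were 0.52 and 0.57, against 0.36 and 0.26 over all tested genes, and C1ra was 1.69 and 2.42 above control 2. The part of interferon signalling in the C1ra values was not tested. Between the groups, 0 of the 25 passed an adjusted p of 0.05 in limma, 5 had an unadjusted p under 0.05, all lower, where 5.68% of all tested genes were lower at that threshold, and the median log2 fold change was -0.51 against 0.13 over all tested genes. The 3 most abundant of them were B2m (control levels of 787 and 507 TPM, then 342 and 324 TPM in the libraries labelled CD95ko), Bst2 (415 and 156, then 237 and 266 TPM) and Isg15 (600.5 and 212, then 156 and 62.3 TPM), each highest in control 1. Psmb8 and Psmb9, which encode immunoproteasome subunits and are named after their values were seen, were the 2 genes highest in the library labelled CD95ko2, as C3 was, at 481 and 43.2 TPM.

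Acute phase genes are a group that inflammatory cytokines induce together with C3 and factor B in liver and epithelia. Of 10 listed, 3 entered the test and 0 passed in limma. Of these 3, 1 (Saa3) had an unadjusted limma p under 0.05, where 14.9% of all tested genes did. Lcn2, a secreted iron-carrier-binding protein, was listed at 383 and 497 TPM in the controls, 214 TPM in the library labelled CD95ko1 and 2323 TPM in the one labelled CD95ko2. Cp, which encodes ceruloplasmin, was listed at 53.2 and 9.34 TPM in the controls, 34.3 TPM in the library labelled CD95ko1 and 132 TPM in the one labelled CD95ko2. Both were highest where C3 was highest. Saa3, a serum amyloid A protein, was listed at 2.98 and 19.6 TPM in the controls and at 0 in both libraries labelled CD95ko. Of the 10 listed, 4 were above 0 in each control and in the library labelled CD95ko1. In the one labelled CD95ko2 only 2 were, Lcn2 and Cp, so most of the group did not follow C3.

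From a list of 18 inducing cytokines, cytokine receptor subunits and transcription factors, 15 entered the test and 0 passed. At an unadjusted limma p under 0.05 there were 3, a share near the 14.9% of all tested genes. Of the 15, control 1 held the highest level of 7 and control 2 of 2. The library labelled CD95ko1 held it for 1 and the one labelled CD95ko2 for 5. The matching shares over all tested genes were not computed. Cebpb, a C/EBP factor, was listed at 431 and 535 TPM in the controls and at 444 and 460.0 TPM in the libraries labelled CD95ko, a narrow range beside that of C3. Rela, an NF-κB subunit, was at 159 and 147 TPM in the controls, 85.9 TPM in the library labelled CD95ko1 and 52.9 TPM in the one labelled CD95ko2. Il1a, an inflammatory cytokine, was at 30.5 and 129 TPM in the controls and at 75.1 and 165 TPM in the libraries labelled CD95ko. Ifng was at 0 in all 4 libraries.

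Macrophage markers as a sum were also highest in the library labelled CD95ko2: the list of 10, of which 3 were above 0, summed to 57.8 and 46.2 TPM in the controls, 53 TPM in the library labelled CD95ko1 and 253 TPM in the one labelled CD95ko2. Cd68 accounted for 146 TPM and Cd14 for 102 TPM there, whereas Csf1r stood at 5.07 TPM there and at 22.2 TPM in the library labelled CD95ko1. The defining markers Ptprc, Adgre1, Lyz2, Tyrobp, Fcer1g, Aif1 and Mrc1 were at 0 in that library as in the others, as were the hepatocyte markers. The summed mammary epithelial markers, mostly Krt18 and Krt8, were also highest there, at 8778 TPM, with 2956 and 2968 TPM in the controls, then 5085 TPM in the library labelled CD95ko1. Of the 7 tested, 6 were highest there, and Cldn7 was lowest there, at 60.0 TPM against 163 and 95.1 TPM in the controls. The part of these markers in the C3 and Cfb values was not tested.

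**Figure D4:**
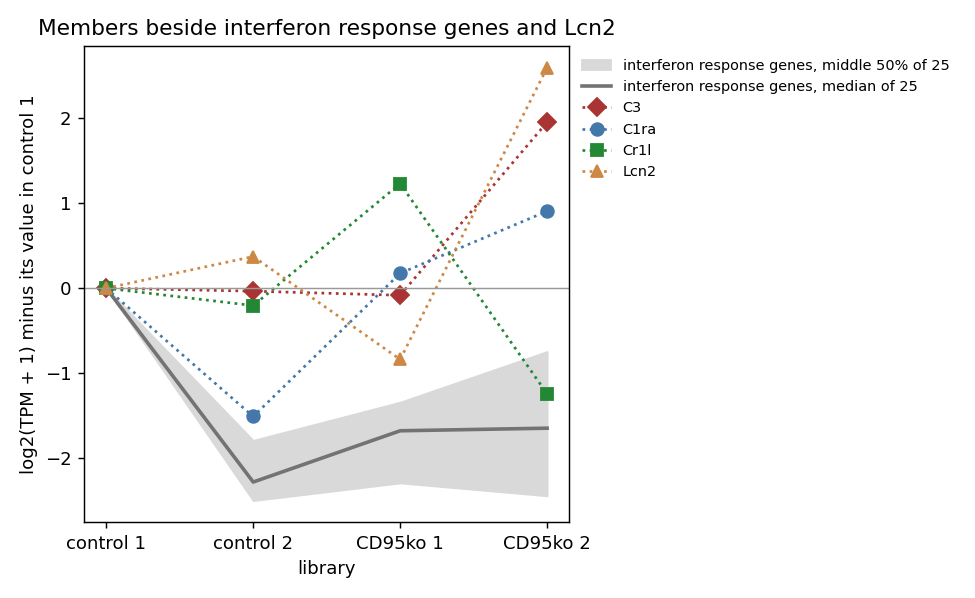
Difference of log2(TPM + 1) from control 1 for C3, C1ra, Cr1l and Lcn2 in each library, with the median and the 25th to 75th percentile of the 25 interferon response genes in grey. Dotted lines join the libraries only to guide the eye. The interferon median lies below control 1 in the other 3 libraries (-2.28, -1.68 and -1.65), C1ra lies below it in control 2 only, C3 and Lcn2 stand out in the library labelled CD95ko2, and Cr1l lies above 0 in the one and below 0 in the other library labelled CD95ko.

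The genes most alike to each tested member were found by the Euclidean distance between profiles of log2(TPM + 1), centred on their mean over the 4 libraries; with so few libraries this is a description only. For C3 they were Dok1 (distance 0.159), St3gal5 (0.209) and Ermp1 (0.213). Dok1, an adaptor of tyrosine kinase signalling, was listed at 39.9 and 40.7 TPM in the controls, 33.7 TPM in the library labelled CD95ko1 and 154 TPM in the one labelled CD95ko2, the pattern of C3 at a lower level. For C1ra they were Eva1c (0.108), Fam131c (0.128) and St6galnac6 (0.133). For Cr1l they were Igflr1 (0.195), Dtwd2 (0.211) and Pkd2l2 (0.232), all 3 listed at 0 in the library labelled CD95ko2 and at no more than 4.54 TPM in any library.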

How the data were processed

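RNA was measured in 4 libraries of 4T1 cells, 2 control and 2 CD95ko, by poly(A) capture, fragmentation and a SMART-seq2-derived protocol with PCR, per the labels' protocols. The deposited tables pair gene symbols with TPM, per the file headers. STAR 2.6.0, RSEM 1.3.0 and the build mm10 are named in the submitters' processing notes, without roles or order. The annotation is not given in the sources used here. TPM carries no depth, so no counting interval applies.

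The 11167 genes at a TPM of 1 or more in 2 or more libraries were transformed to log2(TPM + 1), which understates changes of low genes. The groups, taken from the titles, were tested against each other with limma 3.58.1 (R 4.3.3) (eBayes with trend, two-sided, no covariate), with Benjamini-Hochberg adjustment over all tested genes. An exact permutation test of 2 against 2 cannot give a two-sided p below 0.333. The procedure was tested on simulated data, drawn from observed means and fitted variances, with changes larger than those of the tested members. That does not cover differences between clones. The members and lists were chosen with earlier results of these data known. The text names all members, other complement genes that entered the test, and the 3 genes most alike to each tested member. From each context list it names up to 3 genes of highest mean TPM. Outside that rule, Psmb8, Psmb9 and Ifng are named because of their values. Untested complement genes and C2 are named with their values because they were singled out afterwards. Some genes of the complement list are not reported here by name. Positions and 25-nucleotide overlaps come from GENCODE M21 (GRCm38), promoters from RefSeq (GRCm38.p6). Alternatives were a pseudocount of 0.1, no filter, a mean TPM of at least 5, no variance trend, robust eBayes, quantile normalization, equal medians, the replicate number as a block, and leaving out each library.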

Additional observations from a re-analysis of the deposited data

How the results depend on the processing

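The number of tested members past an adjusted p of 0.05 in limma was 0 under all 8 alternatives that used every library, and 0 to 1 when 1 library was left out, the single call being C3 without the library labelled CD95ko1. Among the other complement genes, the number called was 1 as reported (Clu) and 0 under quantile normalization, with equal medians, with the replicate block, at a pseudocount of 0.1, with no filter and with no variance trend. With 1 library left out, it fell without either control and rose without the library labelled CD95ko1. In that last fit the number called over all tested genes rose as well. The cause was not tested. Where 1 library was left out, the lone library of its group was assumed to vary like the other group. Over all tested genes the median log2 fold change, 0.13 as reported, became 0.002 under quantile normalization and -0.071 with equal medians. The fold change of Cr1l changed sign to -0.056 under quantile normalization and to -0.10 with equal medians, and that of Cfp to -0.069 with equal medians. Over the comparisons without 1 library, the fold change ranged from -0.066 to 1.97 for C3, from -1.14 to 1.33 for Cr1l, from -0.71 to 0.97 for Cfp, from -1.37 to 0.70 for Susd4 and from -1.23 to 0.16 for C1qbp. Of 90 values of single genes under alternatives with all libraries, 81 kept direction and side of the threshold. With 1 library left out, 33 of 48 did, 8 reversed, 2 lost the threshold and 5 gained it. Replicate numbers share only a number: deviations of same-numbered libraries correlated at -0.081 across genes, and with the replicate block 0 of 3 members and 0 of 9 other complement genes passed. Without read numbers, genes listed at 0 cannot be divided into absent and undetected ones.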
